A study of Arabidopsis thaliana with 16 samples.

Results

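The chloroplast NADH dehydrogenase-like (NDH) complex and its biogenesis factors were represented by 7 nuclear genes, taken by locus, with earlier results of these data known, out of 689 genes that had a probe to themselves on the array. They were 2 subunits, NdhS (AT4G23890, also CRR31) and NdhN (AT5G58260), the assembly factors CRR41 (AT1G51100) and Cpn60beta4 (AT1G26230), the accessory protein PIFI (AT3G15840), and the RNA editing factors CRR21 (AT5G55740) and OTP85 (AT2G02980). The gene name given for each of the 7 probes in the platform annotation was the one listed for that locus by RefSeq. Total RNA of Arabidopsis thaliana, ecotype Wassilevskija, was hybridised from 8 wild-type (WT) samples and 8 samples of the ppi2 mutant of the same ecotype. The ppi2 mutant lacks Toc159, a receptor for precursor proteins in the chloroplast outer envelope, and the series set it against WT to ask which transcripts differ when chloroplast import is impaired. The labels give no tissue, age, growth condition or treatment, and do not say whether the numbered samples were separate plants, so the p-values below reflect the scatter among these samples alone, part or all of which may be technical.

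The NDH complex sits in the thylakoid membrane beside photosystem I and passes electrons from ferredoxin back to the plastoquinone pool, which gives cyclic electron flow and, in the dark, chlororespiration. Part of the complex is encoded by ndh genes of the plastid genome, whose transcripts need editing by nuclear-encoded pentatricopeptide repeat proteins, and the rest is encoded in the nucleus and imported. Assembly of the stromal arm needs further nuclear-encoded factors, several of them found through mutants named chlororespiratory reduction (CRR) for their missing fluorescence signal.

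Consecutively numbered samples of a genotype were averaged (samples 1 and 2 as pair 1, and so on), because each of the 16 correlated best with that partner among samples of its genotype, which left n = 4 pairs per genotype. Intensities were quantile-normalized, and normalized values up to 0.0338, their 5th percentile where the deposited value was above 0, were raised to this floor and log2-transformed. All differences are ppi2 minus WT. The WT pairs formed 2 subsets, 1 with 2 and 3 with 4: log2 levels over all probes correlated at 0.898 and 0.885 within them and at 0.759 to 0.812 between them, against 0.943 to 0.961 among ppi2 pairs. With the ppi2 pairs, WT pairs 1 and 2 correlated at 0.761 to 0.806 and WT pairs 3 and 4 at 0.625 to 0.667. WT pairs 1 and 2 were thus about as like ppi2 as they were like WT pairs 3 and 4. WT pairs 3 and 4 also had the lowest median deposited intensities, 0.0976 to 0.124, against 0.198 to 0.212 in WT pairs 1 and 2 and 0.168 to 0.269 in ppi2. The log2 difference of each gene with a level is therefore also given against either WT subset, and the part of this split in the other results was not tested. The subsets were read from these same data, and each such fit has 2 WT pairs. Its p-values leave out the scatter between the subsets, so passing against a subset adds no support. Over all probes 984 passed the test, and with the WT samples limited to either subset 1003 (pairs 1 and 2) and 1452 (pairs 3 and 4) did. Toc159 had no probe of its own, so the disrupted gene gave no check of the labels. Of 5 isoforms of roots and non-green tissue, 0 had a probe of their own, so they gave no check of the tissue. Other markers of tissue were not examined.

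Among the 7 genes, NdhS and CRR21 rose in ppi2, PIFI and Cpn60beta4 fell, and NdhN, CRR41 and OTP85 were at or near the floor in both genotypes, so that no level can be given. NdhS was 3.90-fold higher and CRR21 2.44-fold higher, whereas PIFI was 2.94-fold lower and Cpn60beta4 3.27-fold lower. The 4 calls among the 7 genes stand beside 28.6% of all 3439 probes that passed the same test, 14.2% as increases and 14.4% as decreases (limma with Benjamini-Hochberg adjustment over all probes, threshold 0.05). The median log2 difference of 0 over the 7 genes is set by genes at the floor in both genotypes, and says nothing of the complex. Over all probes the median was 0 after quantile normalization and 0.30 in the values as deposited. In bulk RNA, fewer cells of a type and less RNA per cell cannot be told apart.

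**Figure D1:**
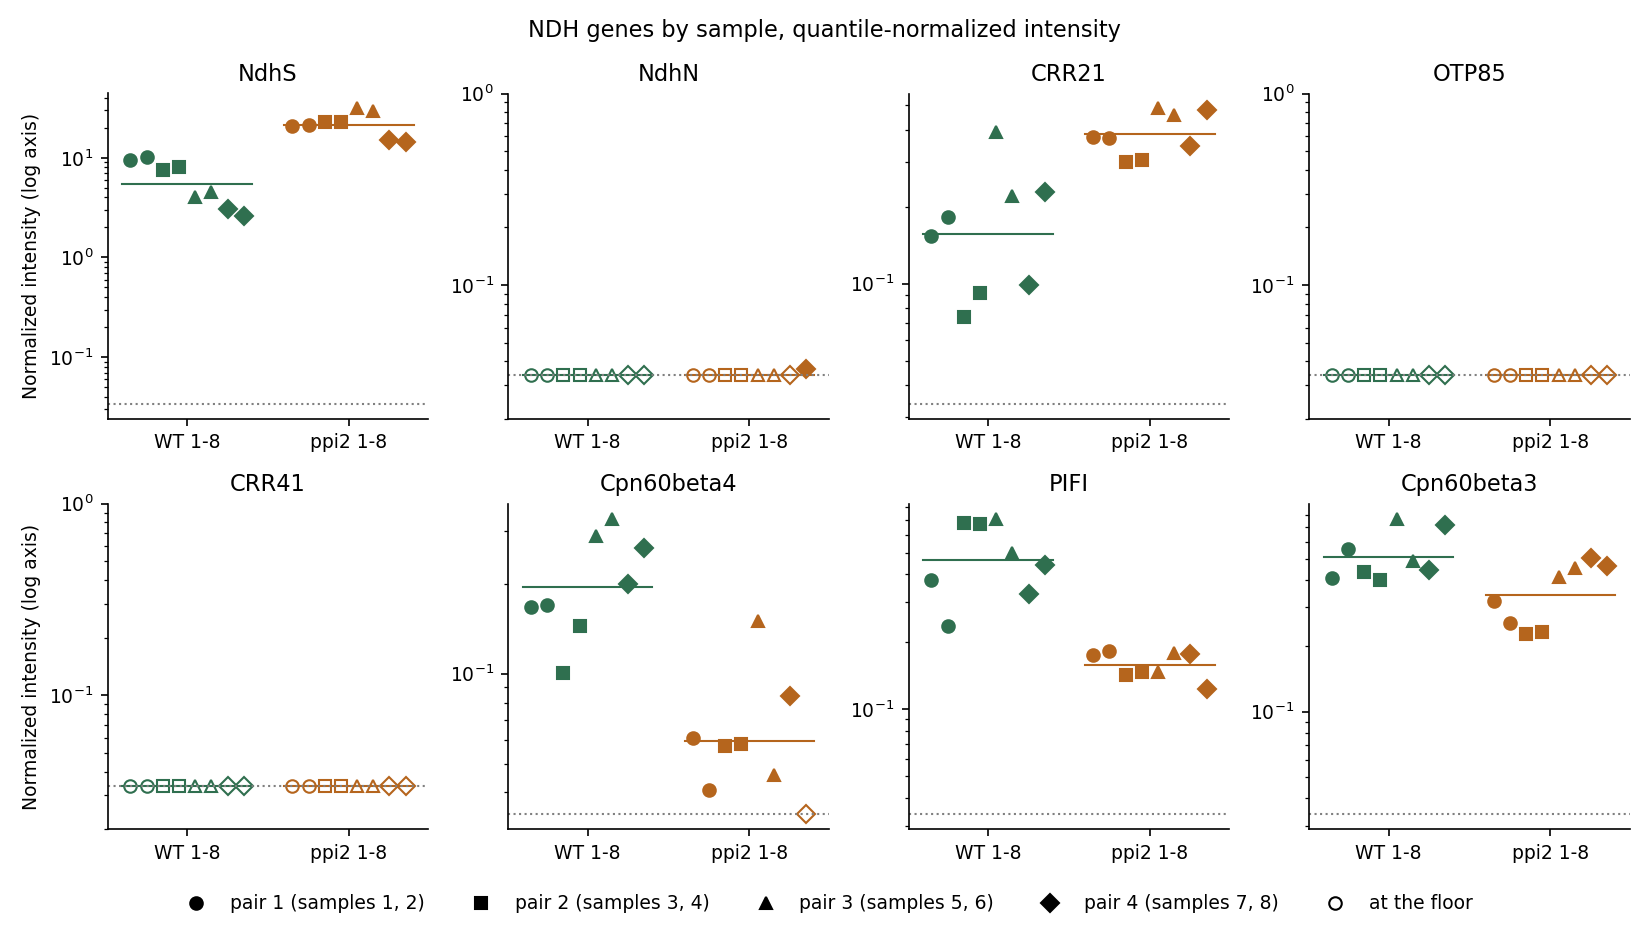
Quantile-normalized intensity (log axis) of the 7 NDH genes and of Cpn60beta3 in each of the 8 WT samples (green) and 8 ppi2 samples (brown), with a marker shape for each averaged pair, a line at the geometric mean of the 4 pairs and a dotted line at the floor of 0.0338. The ppi2 samples of NdhS, 14.2 to 31.4, lie above all WT samples, 2.62 to 10.2, while NdhN, CRR41 and OTP85 stay at the floor apart from 1 ppi2 sample of NdhN.

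NdhS, the subunit with an SH3-like fold that contributes to ferredoxin binding, was the bright member. Its deposited intensity, on a scale that ended at 100 in every sample, ran from 1.38 to 10.9 in WT with a median of 6.91, and from 13.4 to 30.2 in ppi2 with a median of 23.1. All 8 ppi2 samples lay above all 8 WT samples, both as deposited and after normalization, but partner samples are not independent. No share of all probes is given for single samples, while averaged pairs did not overlap in 32.2% of probes. Partner samples agreed closely for this gene, with at most a 1.16-fold difference within a WT pair and 1.07-fold within a ppi2 pair.

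After normalization the WT pairs 1 to 4 of NdhS were at 9.84, 7.75, 4.28 and 2.82, and the ppi2 pairs at 21.2, 22.6, 30.3 and 14.7. The WT pairs thus spanned 3.49-fold, with pairs 1 and 2 above pairs 3 and 4, and the ppi2 pairs spanned 2.07-fold. The log2 level was 2.46 ± 0.82 in WT and 4.42 ± 0.43 in ppi2 (SD, n = 4 pairs each), a difference of 1.96 ± 0.44 SE with a 95% interval of 0.91 to 3.01 (limma adjusted p = 0.0170). Larger increases were measured for 6.43% of all probes. Against WT pairs 1 and 2 alone NdhS was 2.46-fold higher (limma adjusted p = 0.0417), and against WT pairs 3 and 4 alone 6.18-fold (limma adjusted p = 0.00484). The increase no longer passed in the values as deposited (4.43-fold, limma adjusted p = 0.0618) or without ppi2 pair 3, its highest (3.48-fold, limma adjusted p = 0.0524).

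The rank of the NdhS probe among all probes of its own sample, a measure free of scaling, was at percentile 95.6 to 98.9 in the WT samples and 99.2 to 99.7 in the ppi2 samples. The 2 genotypes did not overlap in this rank, for which no share of all probes is given either. A limma fit on ranks, added after the data were seen, did not call the difference of NdhS (adjusted p = 0.414). Ranks this near the top leave little room for a rise, so this fit cannot settle the size of the difference.

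NdhN, a subunit of the stromal subcomplex A, was listed at 0 in 5 of 8 WT samples and 6 of 8 ppi2 samples. Its other deposited intensities lay at or below 0.0358, and 1 of the 16 samples, ppi2 sample 8 at a normalized intensity of 0.0366, was above the floor. No fold is given for NdhN, since all WT pairs and all ppi2 pairs except pair 4 were at the floor. The sources used here do not say what an exact 0 in the deposited table means.

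CRR21 is a pentatricopeptide repeat protein required for editing of the plastid ndhD transcript. Its deposited intensity was 0.0542 to 0.208 in WT (median 0.124) and 0.326 to 0.606 in ppi2 (median 0.464). As deposited, all ppi2 samples lay above all WT samples, again with no share of all probes for single samples. After normalization WT sample 5, at 0.391, lay within the range of the ppi2 samples, 0.300 to 0.486.

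By pair, normalized CRR21 was at 0.167, 0.0825, 0.294 and 0.150 in WT and at 0.373, 0.302, 0.471 and 0.407 in ppi2. The averaged pairs did not overlap, but WT pair 3 came close to ppi2 pair 2. The log2 level was -2.67 ± 0.75 in WT and -1.38 ± 0.27 in ppi2 (SD, n = 4 pairs each), a difference of 1.29 ± 0.38 SE with a 95% interval of 0.38 to 2.19 (limma adjusted p = 0.0455). This was the call nearest to the threshold among the 4, and larger increases were measured for 14.5% of all probes. CRR21 was 3.27-fold higher against WT pairs 1 and 2 (limma adjusted p = 0.0256) and 1.83-fold higher, not passing, against WT pairs 3 and 4 (limma adjusted p = 0.101).

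The call of CRR21 was lost in 8 of 23 alternatives: after cyclic loess (2.19-fold, limma adjusted p = 0.0688), against WT pairs 3 and 4, and without WT pair 1, WT pair 4 or any one of the 4 ppi2 pairs (limma adjusted p = 0.0723 to 0.114). In the values as deposited the increase was 3.86-fold (limma adjusted p = 0.00556). The median log2 difference of all probes was then 0.30, and 73.4% of all calls were increases. All 23 alternatives kept CRR21 higher in ppi2, but those that changed only the filter, replicate unit, block or variance trend could not alter its difference. Within WT pair 4 the partner samples differed 2.31-fold, at 0.0987 and 0.228.

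OTP85, a second editing factor for ndhD, was listed at 0 in all 8 WT samples and in 6 of 8 ppi2 samples. Its remaining deposited values, 0.00812 and 0.00670 in ppi2 samples 3 and 4, were below the floor after normalization. The editing factors thus gave no comparison between CRR21 and OTP85.

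CRR41, a stromal factor in the assembly of subcomplex A, was listed at 0 in 7 of 8 WT samples and in all 8 ppi2 samples. The remaining value, 0.0226 in WT sample 3, was below the floor after normalization. No level can be given for CRR41 in either genotype.

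Cpn60beta4 is a subunit of the plastid chaperonin that is needed for folding of the plastid-encoded subunit NdhH. Its deposited intensity was 0.100 to 0.184 in WT (median 0.166) and 0 to 0.184 in ppi2 (median 0.0597). In ppi2, 6 samples lay between 0.0527 and 0.0755, sample 5 stood at 0.184 and sample 8 was listed at 0. The partner of sample 5, ppi2 sample 6, was at 0.0634, so ppi2 pair 3 rests on samples that differed 3.28-fold after normalization.

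Normalized Cpn60beta4 was at 0.169, 0.121, 0.310 and 0.229 in the WT pairs and at 0.0498, 0.0577, 0.0829 and 0.0532 in the ppi2 pairs. The pairs did not overlap, while among single samples ppi2 sample 5 (0.150) lay above WT samples 3 and 4 (0.101 and 0.145). The log2 level was -2.36 ± 0.58 in WT and -4.07 ± 0.33 in ppi2 (SD, n = 4 pairs each), a difference of -1.71 ± 0.32 SE with a 95% interval of -2.47 to -0.95 (limma adjusted p = 0.00926). The fall was 2.39-fold against WT pairs 1 and 2 (limma adjusted p = 0.0291) and 4.46-fold against WT pairs 3 and 4 (limma adjusted p = 0.00380). The ppi2 values lay near the floor, and the size moved with it: raising the floor to the 25th percentile made the difference 1.62-fold, which did not pass (limma adjusted p = 0.106). With zeros set to missing it was 2.92-fold (limma adjusted p = 0.0111).

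Of 9 genes of the plastid chaperonin and its co-chaperonins, 2 had a probe of their own, of which 0 rose and 1 fell. The other, Cpn60beta3 (AT5G56500), is also a beta subunit of the chaperonin. Its normalized WT pairs were at 0.478, 0.419, 0.613 and 0.566 and its ppi2 pairs at 0.287, 0.228, 0.433 and 0.484. The genotypes overlapped, and the difference of -0.59 ± 0.27 SE had a 95% interval of -1.23 to 0.06 (limma adjusted p = 0.155). It was 1.31-fold lower against WT pairs 1 and 2 (limma adjusted p = 0.512) and 1.72-fold lower against WT pairs 3 and 4 (limma adjusted p = 0.150), and neither passed. As deposited, the log2 level of Cpn60beta3 was 0.31 higher in ppi2, and the median log2 difference of all probes was then 0.30. The difference between the responses of Cpn60beta4 and Cpn60beta3 was not tested.

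PIFI, the post-illumination chlorophyll fluorescence increase protein, is an accessory factor of NDH-dependent chlororespiration and is not a subunit of the complex. Its deposited intensity was 0.143 to 0.780 in WT (median 0.285) and 0.0953 to 0.222 in ppi2 (median 0.188). As deposited the genotypes overlapped, since WT samples 7 and 8, at 0.143 and 0.178, lay within the ppi2 range. After normalization all 8 ppi2 samples, 0.123 to 0.182, lay below all 8 WT samples, 0.236 to 0.711. Here too no share of all probes is given for single samples.

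Normalized PIFI was at 0.299, 0.673, 0.594 and 0.379 in the WT pairs and at 0.178, 0.144, 0.161 and 0.147 in the ppi2 pairs. The WT pairs spanned 2.25-fold and the ppi2 pairs 1.24-fold. The log2 level was -1.12 ± 0.55 in WT and -2.67 ± 0.14 in ppi2 (SD, n = 4 pairs each), a difference of -1.55 ± 0.27 SE with a 95% interval of -2.20 to -0.91 (limma adjusted p = 0.00711). The fall was 2.85-fold against WT pairs 1 and 2 (limma adjusted p = 0.0358) and 3.02-fold against WT pairs 3 and 4 (limma adjusted p = 0.00489). The fall passed in 22 of 23 alternatives, some of which left the difference unchanged by design. The exception was the values as deposited, where PIFI was 1.79-fold lower (limma adjusted p = 0.252).

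**Figure D2:**
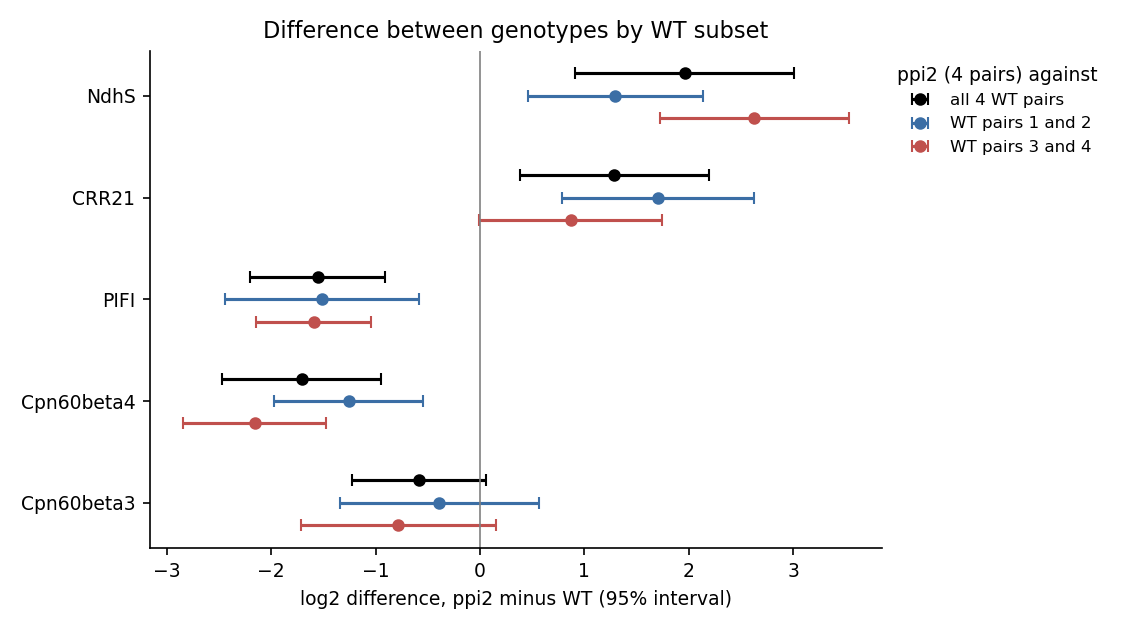
log2 difference between 4 ppi2 pairs and all 4 WT pairs (black), WT pairs 1 and 2 (blue) or WT pairs 3 and 4 (red), with 95% intervals from limma, for the 4 NDH genes with a level in both genotypes and for Cpn60beta3. NdhS and Cpn60beta4 differ more against WT pairs 3 and 4 (2.63 and -2.16) than against WT pairs 1 and 2 (1.30 and -1.26), CRR21 less (0.87 against 1.71), and PIFI lies at -1.51 and -1.59. Intervals against a WT subset leave out the scatter between the subsets.

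The WT subsets thus moved the sizes in different ways. NdhS was lower in WT pairs 3 and 4 than in WT pairs 1 and 2, Cpn60beta4 was higher there, and CRR21 was highest in WT pair 3 and lowest in WT pair 2. PIFI had its lowest and its highest WT pair, 1 and 2, in the same subset. For each of the 4 genes the SD over pairs was larger in WT, 0.55 to 0.82 on the log2 scale, than in ppi2, 0.14 to 0.43. Over the probes above the floor in at least 1 sample, the median SD was 0.66 in WT and 0.29 in ppi2. Cpn60beta3 ran the other way, with 0.25 in WT and 0.51 in ppi2.

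The averaged pairs of the genotypes did not overlap in NdhS, CRR21, PIFI and Cpn60beta4. That was so in 32.2% of all probes, 16.5% with ppi2 above and 15.7% with ppi2 below. For each of the 4 genes a two-sided exact permutation test of the pair means gave p = 0.0286, the smallest that 4 against 4 can give. This value follows from the lack of overlap and adds no support to it.

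**Figure D3:**
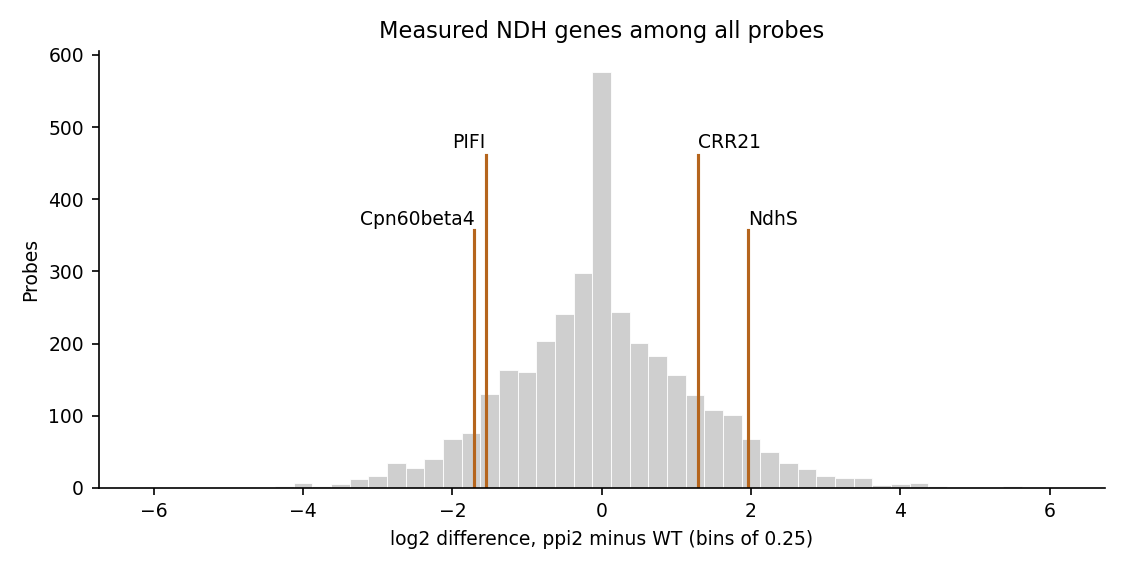
Number of probes (vertical axis) by log2 difference between ppi2 and WT (horizontal axis, bins of 0.25) over all 3439 probes, with vertical lines at the 4 NDH genes that have a level in both genotypes. Larger increases than that of NdhS were measured for 6.43% of probes and than that of CRR21 for 14.5%, and larger decreases than those of Cpn60beta4 and PIFI for 7.94% and 9.65%; the central bin also holds the 244 probes at the floor in every sample.

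Ratios of 2 members within a sample do not depend on how that sample was scaled, and they were formed from the deposited intensities after the values had been seen, as a description without a test. They pair genes already seen to differ, and among all pairs of the 2375 probes above 0 in every sample 26.9% gave a ratio that did not overlap between the genotypes. NdhS over PIFI was 7.74 to 47.3 in the 8 WT samples and 92.5 to 165 in the 8 ppi2 samples. CRR21 over PIFI was 0.106 to 0.824 in WT and 2.12 to 5.07 in ppi2. Neither ratio overlapped between the genotypes.

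The same held for Cpn60beta4, leaving out ppi2 sample 8, where it was listed at 0. The share of 26.9% does not cover its ratios, since this gene was not above 0 in every sample. NdhS over Cpn60beta4 was 11.2 to 92.3 in WT and 161 to 476 in ppi2, and CRR21 over Cpn60beta4 was 0.542 to 1.23 in WT and 3.30 to 9.12 in ppi2. By contrast, NdhS over CRR21 overlapped, at 12.4 to 123 in WT and 27.7 to 57.5 in ppi2. PIFI over Cpn60beta4 overlapped as well, at 1.27 to 7.08 in WT and 0.975 to 4.16 in ppi2. Absolute ratios between probes carry no meaning here, since probes differ in brightness for the same amount of RNA.

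Lists of 41 nuclear genes for the NDH complex were examined in full. Of 20 subunits and linker proteins, 2 had a probe of their own, of which 1 rose (NdhS), 0 fell and 1 (NdhN) did not pass. Of 9 assembly and accessory factors, 3 had one, of which 0 rose, 2 fell (Cpn60beta4 and PIFI) and 1 (CRR41) did not pass. Of 12 factors for processing or editing of ndh transcripts, 2 had one, of which 1 rose (CRR21), 0 fell and 1 (OTP85) did not pass. Another 2 list genes shared their probe with other genes and were not read. None of 6 genes for other routes of cyclic electron flow and chlororespiration, among them PGR5 and the plastid terminal oxidase, had a probe of its own. With 1 to 3 genes measured per list, these counts describe those genes and not the complex.

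Among 575 other single-gene probes above the floor in at least 8 samples, those most like each member were found by Pearson's r of log2 levels over the 16 samples, which includes the difference between genotypes. For NdhS they were AT2G13690 (r = 0.975) and AT4G22190 (r = 0.967). Within the 8 WT samples alone r was 0.953 and 0.898, and within the 8 ppi2 samples 0.780 and 0.741. For CRR21 they were AT1G73740 (r = 0.897) and SIS (AT5G02020, r = 0.886), with 0.954 and 0.785 within WT and 0.706 and 0.498 within ppi2. For PIFI they were AT3G06570 (r = 0.924) and AT3G51510 (r = 0.917), with 0.718 and 0.643 within WT and 0.156 and 0.044 within ppi2. For Cpn60beta4 they were AT4G00170 (r = 0.910) and AT1G21730 (r = 0.907), with 0.789 and 0.702 within WT and 0.766 and 0.652 within ppi2. Partner samples are not independent, so these values describe likeness on this array and carry no p.

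**Figure D4:**
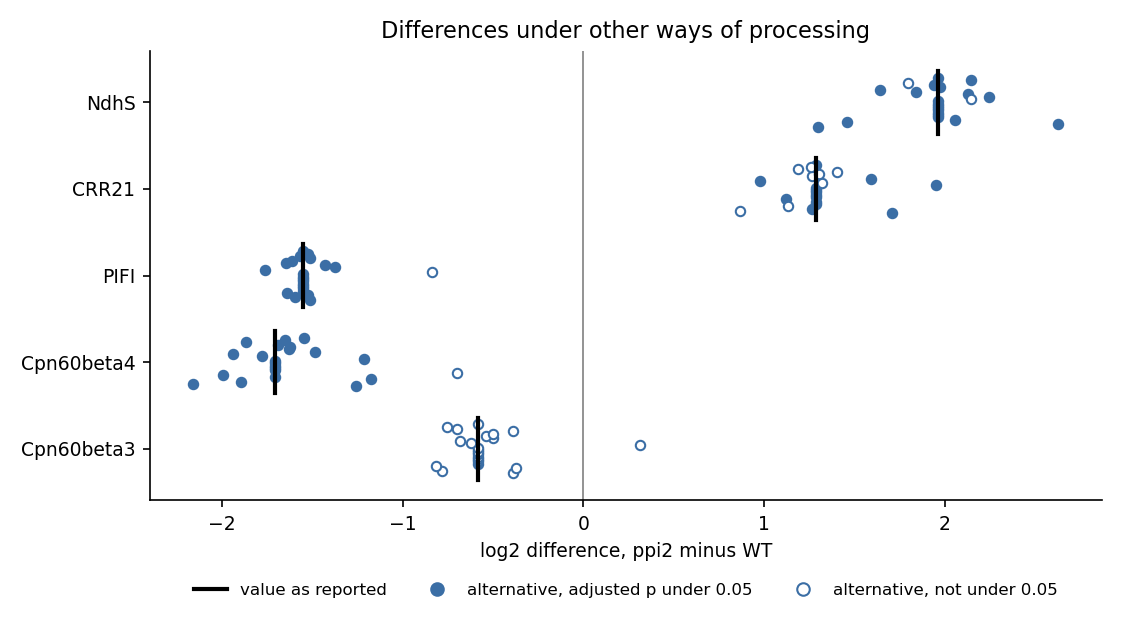
log2 difference between ppi2 and WT under 22 other ways of processing (points; filled where the adjusted p was under 0.05, open where it was not) beside the value as reported (black bar), for the 4 NDH genes with a level in both genotypes and for Cpn60beta3. NdhS lies between 1.30 and 2.63, CRR21 between 0.87 and 1.95, PIFI between -1.76 and -0.84 and Cpn60beta4 between -2.16 and -0.70, and Cpn60beta3 crosses 0 in the values as deposited.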

How the data were processed

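The authors' deposited table held 1 intensity per probe and sample, for 3439 probes and 16 samples, on a linear scale from 0 to 100; the sources used here do not say how spots were quantified, background-corrected or scaled. Exact zeros made up 13.0% to 16.6% of a sample. Precision was limited by the number of arrays and by weak signals, since arrays have no read depth. An older platform annotation gave 1 gene for 692 probes and several for 870, and did not list 1877. Of the single-gene probes 690 matched RefSeq (TAIR10.1, used only for names). No gene was named from a shared probe. Here, intensities were quantile-normalized, floored, put on the log2 scale and averaged by pair, and all 3439 probes were fitted by lmFit and eBayes (limma 3.58.1, run in R 4.3.3; 6 residual and 0.677 prior degrees of freedom). The fit alone was also run on simulated log2 pair values, with the same spread in both genotypes and no WT subsets. Normalization, floor and averaging were not part of that simulation. Named genes were the 7 members, every list gene measured by its own probe, and the 2 most alike probes per member. The members and lists were chosen with earlier results of these data known. Alternatives covered normalization, floor, dim-probe filter, replicate unit, replicate block, variance trend, WT subsets, each pair left out and, added later, ranks.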

Additional observations from a re-analysis of the deposited data

Results flagged for a closer look

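Among 22 groups with any spread, formed from the 7 NDH genes and Cpn60beta3 as 4 averaged pairs or 8 samples per genotype, the same value was marked at both levels for standing far from the rest of its group. NdhN had a log2 level of -4.83 in ppi2 pair 4 and of -4.77 in ppi2 sample 8 of that pair, while all others were tied at the floor of -4.89. Chance marks about 1 in 20 groups, a rate that does not hold where the others are tied, since any value above the floor is then marked.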

How the results depend on the processing

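In the values as deposited 2 members passed (CRR21 and Cpn60beta4) in place of 4, and with 1 averaged pair left out 2 to 4 passed, the lowest without ppi2 pair 3. Over all probes 984 passed; 686 to 1087 did with 1 pair left out and without averaging, 1218 with sample pairs as a random block (consensus correlation 0.649) and 1616 with no block. As deposited, 73.4% of the calls were increases, against 49.6% after quantile normalization. NdhS, CRR21, PIFI and Cpn60beta4 kept their direction in all 23 alternatives and passed in 20, 15, 22 and 22. Alternatives that changed only the dim-probe filter, replicate unit, replicate block or variance trend returned the same difference. In those the direction was fixed in advance, and the fits that count every sample treat partner samples as independent. Cpn60beta3 turned only as deposited (0.31) and passed in 2. NdhN was above the floor in 4 samples, CRR41 in 1 and OTP85 in 2 with a floor at the 1st percentile, and each in 0 at the 25th. For losses of a call the cause was not tested. Same-numbered WT and ppi2 pairs deviated together at r = 0.381, 0.307, 0.031 and 0.330 across probes, against at most -0.034, 0.001, 0.057 and 0.002 with another number. Deviations were taken from the mean of each genotype. Where same-number values are positive, this in itself lowers those with another number, which are thus no independent baseline. The same-number values hint at shared numbers in 3 of 4 pairs. However, pair 3 was under 0.1, the lowest r set for taking numbers as pairing. The fit without the block, chosen because no methods were given, was kept. With the replicate block by pair number 4 members and 846 probes passed, and by sample number, with every sample counted, 4 members and 1719 probes. Signal near the floor limits Cpn60beta4 in ppi2 and all of NdhN, CRR41 and OTP85.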
